A study of Arabidopsis thaliana with 48 samples.

Results

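The transcripts described here are those of the mitochondrial genome of Arabidopsis thaliana, the rows whose identifier begins with ATMG. Members were those ATMG rows whose counts summed to over 100 across all 48 libraries, which gave 34 of 146 ATMG rows and 34 of 32678 gene rows. The other 112 ATMG rows held 1539 counts together, and 63 of them had none. The limit fell between ATMG00180 with 108 counts, ATMG01320 with 109 and ATMG00140 with 115 on its inner side, and ATMG00410 with 97, ATMG01120 with 96 and ATMG01180 with 90 on its outer side.

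Plants were grown for 5 weeks in FlowPots, a peat-based system free of microorganisms until inoculated. A synthetic community of bacteria, fungi and oomycetes (BFO) was added or left out to ask how root microbiota and light act together on the host. Shoots and roots were sequenced in 3 libraries for each of 16 conditions. The myc2-3 groups were plants of 1 insertion mutant allele of MYC2, a transcription factor of jasmonate signalling. The MYC2–FLAG groups were plants of 1 complemented line, jin1-8 mutants that carry MYC2 fused to a FLAG tag under the MYC2 promoter, so the plants of both genotypes carried a myc2 mutation and the comparison is with a transgene and not with Col-0. Each genotype was grown under low photosynthetically active radiation (LP, called shade in the labels) or under normal light (NC), and with BFO (+BFO) or without (−BFO). The 8 groups of each genotype were therefore LP +BFO, LP −BFO, NC +BFO and NC −BFO, in shoots and in roots. All libraries of one genotype came from one sequencing project and all of the other from another. An effect of genotype and one of sequencing project cannot be told apart. By the study's account, many reads of part of the myc2-3 samples came from a latent virus. From how these samples clustered, the study judged that the virus had no significant effect on plant transcripts. The part of the virus in any result here was not tested. The labels do not tie the 3 libraries of a group to separate FlowPots. Where replicates share plants or handling, a p-value measures only the spread between these libraries.

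Plant mitochondria keep a large, recombining genome that encodes core subunits of the respiratory chain and of ATP synthase, proteins of cytochrome c maturation, part of the mitochondrial ribosome, and ribosomal and transfer RNAs. It is transcribed by phage-type RNA polymerases encoded in the nucleus, and its transcripts are spliced, edited from C to U and trimmed by nuclear-encoded proteins. Their abundance is known to depend strongly on RNA stability, and in plant mitochondria a poly(A) tail marks an RNA for decay. Roots are respiring tissue without photosynthesis, whereas leaf cells hold chloroplasts with their own abundant transcripts. In whole organs, fewer mitochondria, fewer cells rich in them and less RNA for each mitochondrial genome cannot be told apart.

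Few of the identifiers carried a name in the sources used here. Notes on nuclear genes of chromosome 2 in the RefSeq annotation describe ATMG00180 as a cytochrome c biogenesis protein, ATMG00560 as a nucleic acid-binding protein, ATMG00730 as subunit 3 of cytochrome c oxidase (the terminal oxidase of the chain), ATMG01080 and ATMG01090 as subunit 9 of ATP synthase, ATMG01190 as its subunit 1 and ATMG01320 as a part of NADH dehydrogenase subunit 2. ATMG01170 is named ATP6-2, subunit a of ATP synthase, in material that came with the study. The other members are given by identifier alone, apart from 3 whose class in a fixed list is given below. The same annotation lists 3 ribosomal RNA genes on the mitochondrial genome, rrn5, rrn18 and rrn26, without pairing them with ATMG identifiers.

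The labels fitted the tissue markers and MYC2, but in roots the 2 genotypes disagreed on the microbial treatment. Shoot markers summed to 22449 to 43442 CPM in shoots (here counts per 1000000 gene counts, and for the genes tested below per 1000000 of TMM-normalized library size), against 113 to 417 CPM in roots, and root markers to 105 to 601 CPM in shoots, against 2591 to 8205 CPM in roots. All 6 shoot and 7 root markers were detected in either tissue. The MYC2 row had 4.53 to 14.8 CPM in myc2-3 shoots, against 43.1 to 319 CPM in MYC2–FLAG shoots, and 29.0 to 51.2 CPM in myc2-3 roots, against 134 to 258 CPM in MYC2–FLAG roots. In roots, however, genes that answered BFO did so in opposite directions in the 2 genotypes. Of the genes called in both, 1467 of 1470 (99.8%) went opposite ways under NC and 1675 of 1716 (97.61%) under LP, whereas shoots gave 90 of 616 (14.61%) under NC and 281 of 441 (63.72%) under LP. Groups are therefore called libraries labelled +BFO or −BFO, and each direction of a BFO effect in roots rests on those labels. So does the size of each difference between genotypes in a root BFO effect. BFO effects in shoots rest on the labels as well, and under LP most genes called in both genotypes went opposite ways there. Contrasts of genotype, tissue and light that average over BFO stay the same if the labels of all libraries of a genotype and tissue are exchanged.

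Counting also set limits. Gene counts came to 5162823 to 11045467 per library, and reads with more than one alignment were in no gene row. They made up 1.46% to 5.90% of all counts. Chromosome 2 carries a long insertion of mitochondrial DNA in this accession. In the RefSeq assembly (TAIR10.1, a newer release than the build of the files), 65.1% of the 150-base windows of the 367808-base mitochondrial genome had an exact copy in the nucleus, and 98.8% of these were first found on chromosome 2. Of 37 protein gene parts, 15 were copied over every window, 27 over more than 50% of windows and 7 not at all. No window of rrn26 or rrn18 had an exact nuclear copy. Members with such copies can therefore lose reads. Ranks, ratios and shares between members are thus of counted reads and not of transcript levels. Nuclear and mitochondrial copies can share reads, and these rows are uncertain to that extent. AT2G07698, the nuclear row matched to ATMG01190, had 2109 counts against 140 on the mitochondrial row, and AT2G07671, matched to ATMG01080, had 977 against 543.

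The 34 members held 737192 counts, 0.192% of all gene counts. ATMG00020 alone took 610857 of these (82.9%) and ATMG01390 107650 (14.6%), together 97.5%. A fixed list of functional classes, which the annotation could not check, holds these 2 and ATMG01380 (523 counts) as ribosomal RNA. The remaining 31 members shared 18162 counts, 6547 in shoots and 11615 in roots, which came to 161 to 444 counts per shoot library and 256 to 784 per root library. The share of the members is therefore the level of ATMG00020 and ATMG01390, and the 31 others are described apart. All 34 passed the filter on low counts, which was the same limit as the rule itself.

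Shoot libraries gave the members a far smaller share than root libraries. The share had a lowest, median and highest value of 0.0148%, 0.0241% and 0.0646% in the 24 shoot libraries, against 0.140%, 0.269% and 0.886% in the 24 root libraries. The tissues did not overlap. In myc2-3 the mean was 0.0338% in shoots and 0.312% in roots, and in MYC2–FLAG it was 0.0207% in shoots and 0.383% in roots. Both differences had an adjusted p of 7.5e-05 in exact permutation tests within the 4 light and BFO conditions, two-sided and adjusted over 12 comparisons of the share. The unadjusted p of 1.25e-05 was the smallest these tests can give. Chloroplast transcripts (ATCG rows) had the reverse order, with 0.613% to 3.06% of gene counts in shoots and 0.0623% to 0.115% in roots.

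**Figure D1:**
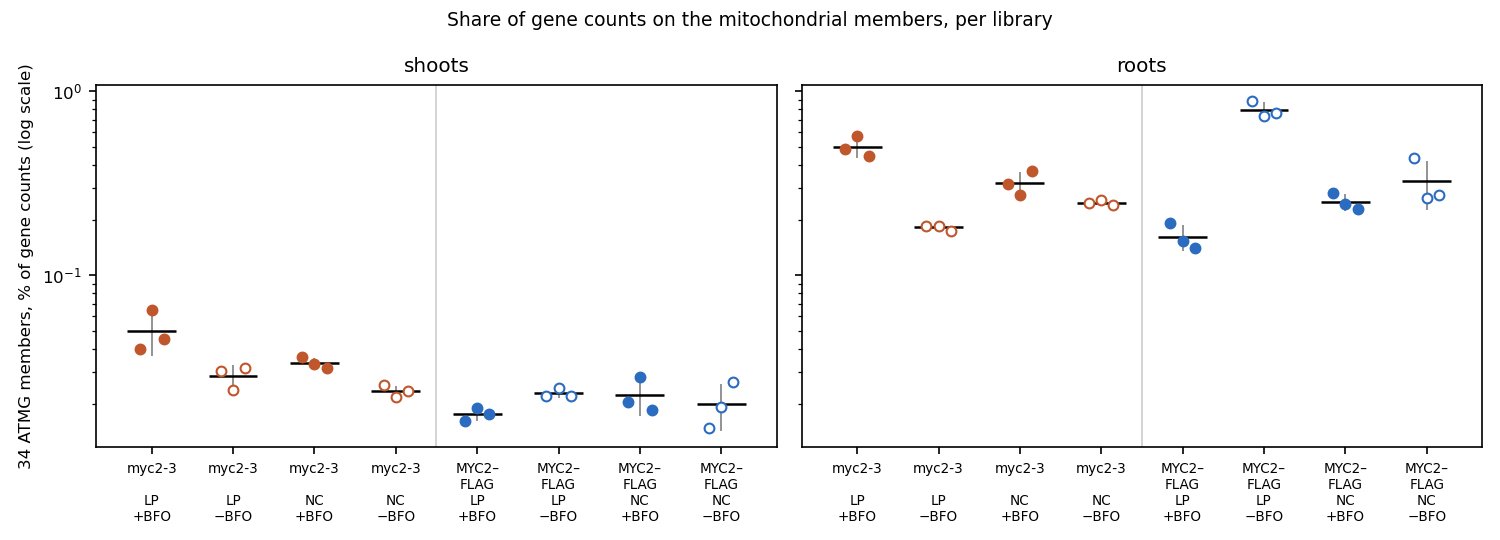
Share of gene counts on the 34 mitochondrial members, in percent on a log axis, by condition in shoots (left) and roots (right). Points are the 3 libraries of a condition (filled for +BFO, open for −BFO), horizontal bars their mean and vertical lines ± SD. Shoot libraries lie between 0.0148% and 0.0646% and root libraries between 0.140% and 0.886%, with the highest values in MYC2–FLAG root LP −BFO.

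The difference between tissues was very unequal among members. ATMG00020 had 98.5, 166 and 519 CPM (lowest, median and highest) in shoots, against 877, 1761 and 6619 CPM in roots. It was lower in shoots by 3.07 ± 0.12 on the log2 scale in myc2-3 (log2 fold change −3.07, SE 0.12, edgeR adjusted p = 2.835e-25) and by 3.89 in MYC2–FLAG (log2 fold change −3.89, SE 0.13, edgeR adjusted p = 2.311e-28). ATMG01390 had 43.9, 80.2 and 173 CPM in shoots and was also lower there, with log2 fold changes of −1.76 ± 0.08 in myc2-3 and −2.40 ± 0.09 in MYC2–FLAG (SE). Neither member overlapped between tissues in any of the 8 genotype, light and BFO conditions.

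The ratio of ATMG00020 to ATMG01390 differed with tissue as well. It had a lowest, median and highest value of 1.42, 2.2 and 3.04 in shoots, against 3.37, 5.14 and 8.61 in roots. The 31 other members had 127, 228 and 414 counts for every 1000 counts on ATMG00020 in shoots, against 6.77, 23.1 and 76.9 in roots. Their share of the gene counts overlapped between tissues, at 0.00214%, 0.00359% and 0.00711% in shoots against 0.00355%, 0.00543% and 0.00909% in roots. Without ATMG00020, ATMG01390 and ATMG01380 the members' mean share was 0.00289% in shoots and 0.00576% in roots of MYC2–FLAG (adjusted p = 0.00015, exact permutation test). In myc2-3 it was 0.00440% in shoots and 0.00575% in roots (adjusted p = 0.0619, exact permutation test).

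Gene by gene, a member was called where the log2 fold change was at least 1 in size and the adjusted p of edgeR's quasi-likelihood test over 21098 genes was under 0.05. Between shoots and roots of myc2-3, 8 of 34 members were called, 6 higher and 2 lower in shoots, while 48% of all genes tested were called, 22.8% higher and 25.3% lower. In MYC2–FLAG 8 were called as well, 2 higher and 6 lower, against 45.8% of all genes, 21.4% higher and 24.4% lower. Both counts are 23.5% of the members. Their median log2 fold change was 0.10 in myc2-3, against −0.13 over all genes, and −0.46 in MYC2–FLAG, against −0.14 over all genes.

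ATMG01080 and ATMG01090, both annotated as subunit 9 of ATP synthase (the membrane ring of the enzyme), went against ATMG00020. Every window of the mitochondrial gene atp9 had an exact nuclear copy in the RefSeq assembly, so reads of subunit 9 can be lost from these rows. ATMG01080 had 0.977, 1.99 and 4.44 CPM in shoots, with log2 fold changes over roots of 1.35 ± 0.19 in myc2-3 and 1.21 ± 0.20 in MYC2–FLAG (SE). ATMG01090 had 0.759, 1.71 and 3.34 CPM in shoots, with 1.57 ± 0.20 in myc2-3 and 1.14 ± 0.23 in MYC2–FLAG (SE), and did not overlap between tissues in any of the 8 conditions. In myc2-3, ATMG01380, ATMG01330, ATMG00180 (cytochrome c biogenesis) and ATMG00660 were also called higher in shoots, by 1.67, 1.11, 1.23 and 1.01 on the log2 scale. Of these, ATMG00660 lost its call without any one of 10 libraries and ATMG00180 without any one of 3. ATMG01330 lost it without replicate 2 of myc2-3 shoot LP +BFO.

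ATMG00090, the third most counted member, was lower in shoots of MYC2–FLAG (log2 fold change −1.31, SE 0.15, edgeR adjusted p = 2.699e-10). The other MYC2–FLAG calls were ATMG00080 at −1.01, ATMG00630 at −1.07 and ATMG00130 at −1.27. These 3 were lost when any one of 11, 6 and 13 libraries was left out.

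**Figure D2:**
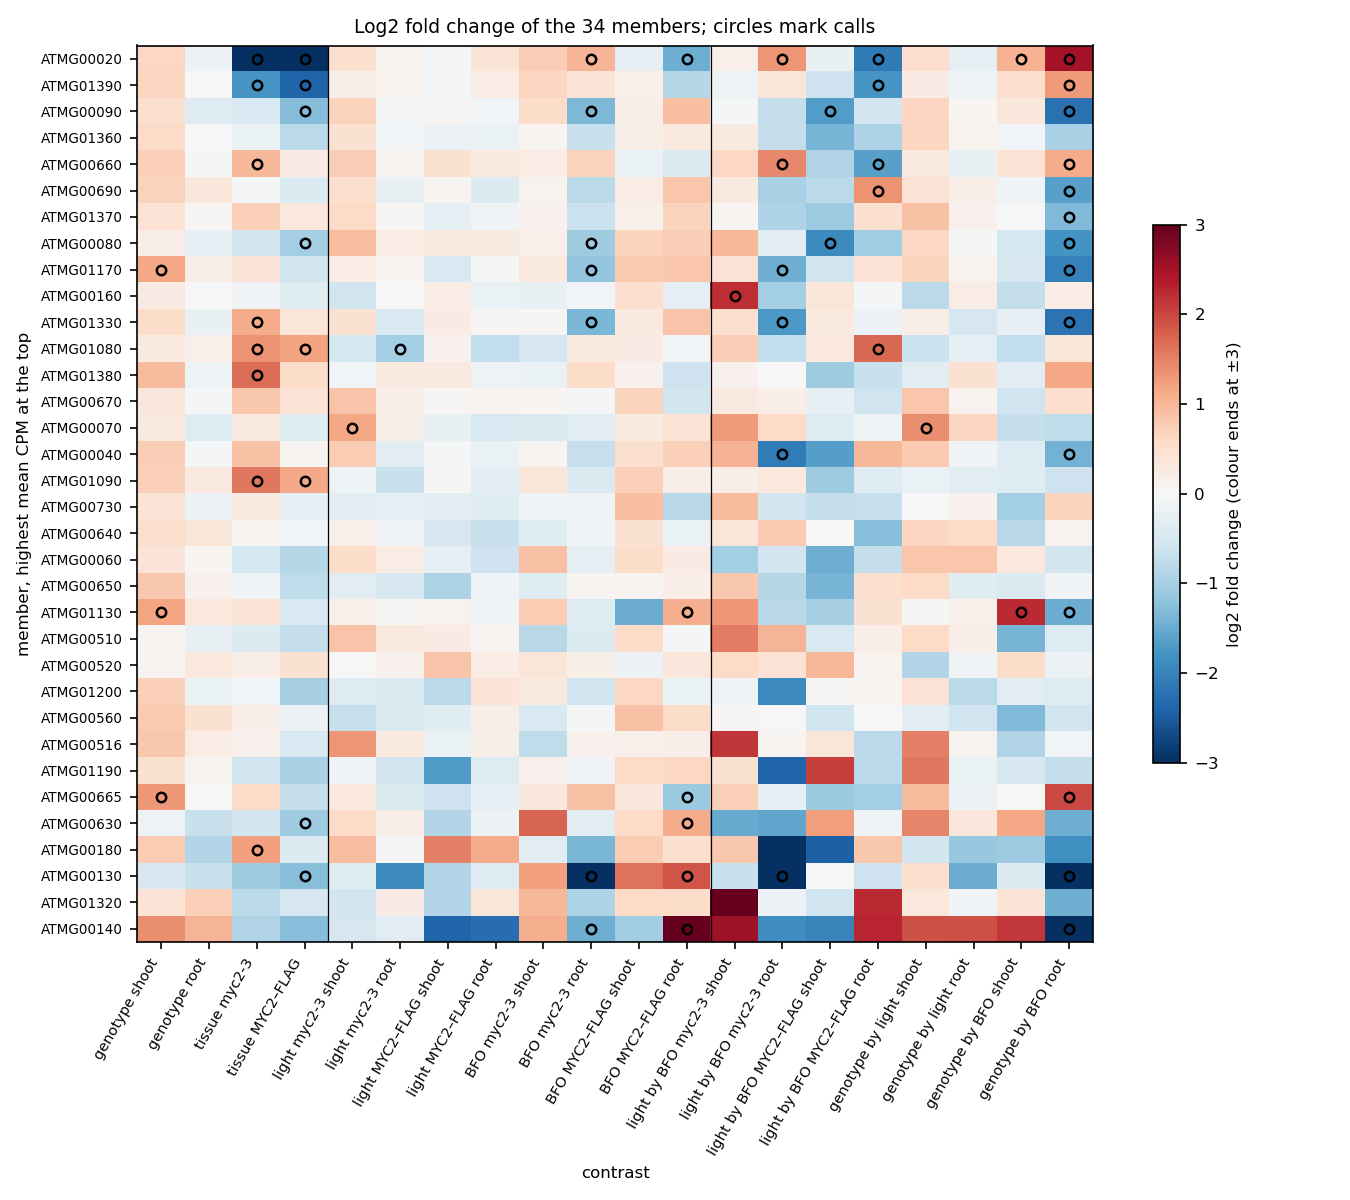
Log2 fold change of each of the 34 members (from the highest mean CPM at the top) in each of the 20 contrasts, as colour that ends at ±3, with circles around calls. ATMG00020 and ATMG01390 are lower in shoots than in roots in both genotypes, whereas ATMG01080 and ATMG01090 are higher.

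Between genotypes, the members had a larger share in myc2-3 shoots. The mean was 0.0338% in myc2-3 shoots and 0.0207% in MYC2–FLAG shoots, a ratio of 1.63 (adjusted p = 0.0008, exact permutation test within 4 conditions, n = 12 each). The groups did not overlap in 2 of the 4 conditions, both of them +BFO. The 31 other members had a mean share of 0.00440% in myc2-3 shoots and 0.00289% in MYC2–FLAG shoots (adjusted p = 0.0017, exact permutation test). In roots the means were 0.312% in myc2-3 and 0.383% in MYC2–FLAG (adjusted p = 0.491, exact permutation test).

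The difference in shoots was broad and small. Of the 34 members, 32 had a positive log2 fold change, with a median of 0.56 against 0.01 over all genes tested. ATMG00020 stood at 0.63 ± 0.11, ATMG01390 at 0.66 ± 0.08, ATMG00660 at 0.73 ± 0.16 and ATMG00690 at 0.70 ± 0.17 (log2 fold change, SE), all under the fold limit. Without the fold limit 13 of 34 members passed, against 6181 of 21098 genes. With it 3 were called, all higher in myc2-3, against 1.86% of all genes tested. These 3, of which ATMG00665 was named after its values were seen, were ATMG01170 (subunit a of ATP synthase) at 1.16 ± 0.25, ATMG01130 at 1.19 ± 0.34 and ATMG00665 at 1.31 ± 0.45 (log2 fold change, SE). With a replicate block all 3 lost their call. ATMG01170 had 0.617 to 4.60 CPM over the shoot libraries, with all myc2-3 libraries above all MYC2–FLAG libraries in 3 of 4 conditions.

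Other values moved with this difference. Replicate 2 of myc2-3 shoot LP +BFO stood apart, with the highest member share of any shoot library (0.0646%), a chloroplast share of 3.06% and 5.23% of counts not uniquely aligned. Leaving out any one library kept the difference in share between 0.0112 and 0.0143 percentage points, and ATMG00665 lost its call without that library, without replicate 1 of myc2-3 shoot NC −BFO or replicate 3 of NC +BFO, and in limma-voom and DESeq2. Chloroplast transcripts had means of 1.22% to 2.19% of gene counts in the 4 myc2-3 shoot conditions, against 0.872% to 1.42% in the 4 MYC2–FLAG shoot conditions. Their part in the result was not tested. In roots no member was called between genotypes, against 1.30% of all genes. At an unadjusted p under 0.05 edgeR gave 3 members there, against 31.1% of all genes, while limma-voom and DESeq2 called 0 each.

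In roots, by the BFO labels, the share of the members moved in opposite directions in the 2 genotypes. So did 99.8% (NC) and 97.61% (LP) of all genes called in both, so this is not particular to the members. In myc2-3 roots the members' mean share was 0.410% in libraries labelled +BFO and 0.215% in those labelled −BFO, a ratio of 1.90. The unadjusted p of 0.005 was the smallest the exact permutation test allows with 6 libraries each, and the adjusted p was 0.012. The MYC2–FLAG roots had a mean of 0.206% in libraries labelled +BFO and 0.560% in those labelled −BFO, a ratio of 0.368 (adjusted p = 0.0257, exact permutation test, n = 6 each). This call was lost without replicate 2 or replicate 3 of MYC2–FLAG root NC +BFO, with the difference between −0.369 and −0.326 percentage points over all libraries left out.

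The contrast was larger under LP. In myc2-3 roots under LP the shares were 0.486%, 0.572% and 0.443% with +BFO, against 0.186%, 0.186% and 0.174% with −BFO. Under NC they were 0.314%, 0.274% and 0.368% with +BFO, against 0.247%, 0.257% and 0.240% with −BFO. The labelled groups did not overlap under either light, at ratios of 2.75 and 1.28. With 3 libraries against 3 the exact permutation test cannot go below p = 0.1.

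In MYC2–FLAG roots under LP the shares were 0.191%, 0.154% and 0.140% with +BFO, against 0.886%, 0.739% and 0.761% with −BFO, a ratio of 0.203 without overlap. Under NC they were 0.279%, 0.244% and 0.229% with +BFO, against 0.436%, 0.264% and 0.273% with −BFO, and the groups overlapped (p = 0.3, exact permutation test). The highest shares of the series thus lay in MYC2–FLAG root LP −BFO and myc2-3 root LP +BFO.

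ATMG00020 made up most of these shares. Under LP it had 3431, 4053 and 3280 CPM in myc2-3 roots with +BFO, against 1122, 1125 and 1097 CPM with −BFO. Under NC it had 2070, 1797 and 2450 CPM with +BFO, against 1662, 1709 and 1560 CPM with −BFO. Over both lights it was higher with +BFO (log2 fold change 1.02, SE 0.16, edgeR adjusted p = 1.265e-06), a call close to the fold limit that was lost without replicate 3 of NC +BFO or replicate 2 of LP +BFO.

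In MYC2–FLAG roots under LP, ATMG00020 had 1238, 1002 and 877 CPM with +BFO, against 6619, 5614 and 5799 CPM with −BFO. Under NC it had 1890, 1623 and 1480 CPM with +BFO, against 3114, 1725 and 1818 CPM with −BFO, where the groups overlapped. Over both lights it was lower with +BFO (log2 fold change −1.47, SE 0.16, edgeR adjusted p = 3.985e-10).

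ATMG01390 had the same signs at less than the fold limit, with log2 fold changes of 0.42 ± 0.11 in myc2-3 roots and −0.86 ± 0.11 in MYC2–FLAG roots (SE). Under LP it had 470, 545 and 399 CPM in myc2-3 with +BFO, against 328, 334 and 270 CPM with −BFO. In MYC2–FLAG it had 247, 197 and 205 CPM with +BFO, against 786, 671 and 704 CPM with −BFO.

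**Figure D3:**
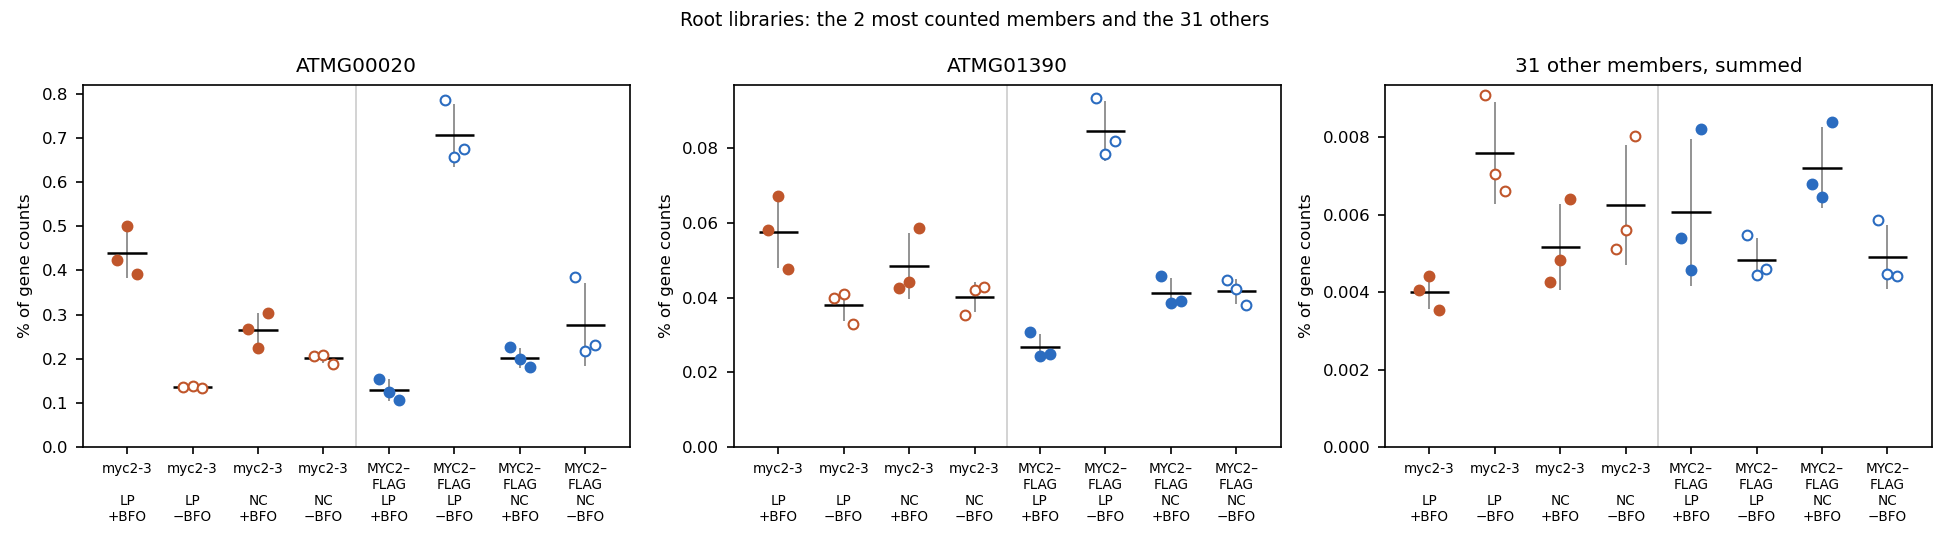
Percent of gene counts on ATMG00020, on ATMG01390 and on the 31 other members together in the root libraries, by condition (points are the 3 libraries, filled for +BFO and open for −BFO, with the mean and ± SD). ATMG00020 is highest in MYC2–FLAG LP −BFO (mean 0.706%) and myc2-3 LP +BFO (mean 0.439%), where the 31 other members have means of 0.00483% and 0.00401%.

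The means of the 31 other members had the opposite order. Their mean share was 0.00458% in myc2-3 roots labelled +BFO and 0.00692% in those labelled −BFO (p = 0.02, adjusted p = 0.06, exact permutation test). For MYC2–FLAG roots it was 0.00664% with +BFO and 0.00488% with −BFO (p = 0.03, adjusted p = 0.0619, exact permutation test). Neither passed the adjusted threshold. In MYC2–FLAG roots under LP the 31 members had a mean of 0.00606% with +BFO and 0.00483% with −BFO (p = 0.5, exact permutation test). In myc2-3 roots under LP it was 0.00401% with +BFO and 0.00758% with −BFO (p = 0.1, exact permutation test). Their ratio to ATMG00020 shifted widely, but it also carries the change of ATMG00020 itself. In myc2-3 roots under LP the 31 members had 9.55, 8.87 and 9.04 counts per 1000 counts on ATMG00020 with +BFO, against 66.3, 51.2 and 49.2 with −BFO. The MYC2–FLAG roots under LP had 34.8, 36.7 and 76.9 with +BFO, against 6.95, 6.77 and 6.81 with −BFO.

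In myc2-3 roots, 7 of 34 members were called for BFO, 1 higher and 6 lower with +BFO, against 10.3% of all genes tested (4.89% higher and 5.42% lower). The members' median log2 fold change was −0.33, against −0.03 over all genes. In MYC2–FLAG roots 6 were called, 4 higher and 2 lower with +BFO, against 12.9% of all genes (6.06% higher and 6.80% lower), with a median of 0.31 against 0.00. These counts fell to as few as 4 in each genotype when 1 library was left out, in myc2-3 without replicate 3 of NC −BFO. Without the fold limit 11 of 34 members passed in myc2-3 roots, against 9447 of 21098 genes. In MYC2–FLAG roots 15 passed, against 10747 genes.

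ATMG00090 showed the reverse of ATMG00020 at the highest counts among the 31. In myc2-3 roots under LP it had 4.73, 4.22 and 3.44 CPM with +BFO, against 17.2, 12.4 and 11.3 CPM with −BFO. Under NC it had 4.04, 5.91 and 6.31 CPM with +BFO, against 7.42, 8.60 and 16.3 CPM with −BFO. The groups did not overlap under either light and the member was lower with +BFO (log2 fold change −1.35, SE 0.19, edgeR adjusted p = 2.036e-07).

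ATMG00090 had in MYC2–FLAG roots 11.1, 7.97 and 16.2 CPM under LP with +BFO, against 9.20, 7.13 and 6.95 CPM with −BFO. Under NC it had 15.4, 12 and 18.5 CPM with +BFO, against 7.75, 5.39 and 7.45 CPM with −BFO. The groups overlapped under LP and not under NC, and the log2 fold change of 0.90 ± 0.17 (SE) stayed under the fold limit.

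ATMG00080 was also lower with +BFO in myc2-3 roots, with 1.92, 1.69 and 2.00 CPM under LP with +BFO, against 4.42, 4.59 and 4.24 CPM with −BFO. Its log2 fold change was −1.07 ± 0.26 (SE, edgeR adjusted p = 0.0007398), lost without replicate 2 of NC +BFO or replicate 3 of NC −BFO. ATMG01170, subunit a of ATP synthase, had 1.41, 1.33 and 0.778 CPM under LP with +BFO, against 4.89, 4.68 and 3.85 CPM with −BFO, and a log2 fold change of −1.19 ± 0.28 (SE). Without replicate 3 of NC −BFO its log2 fold change was −1.0 and the call was lost. ATMG01330 was at −1.37 ± 0.29 and kept its call under all 19 alternatives.

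**Figure D4:**
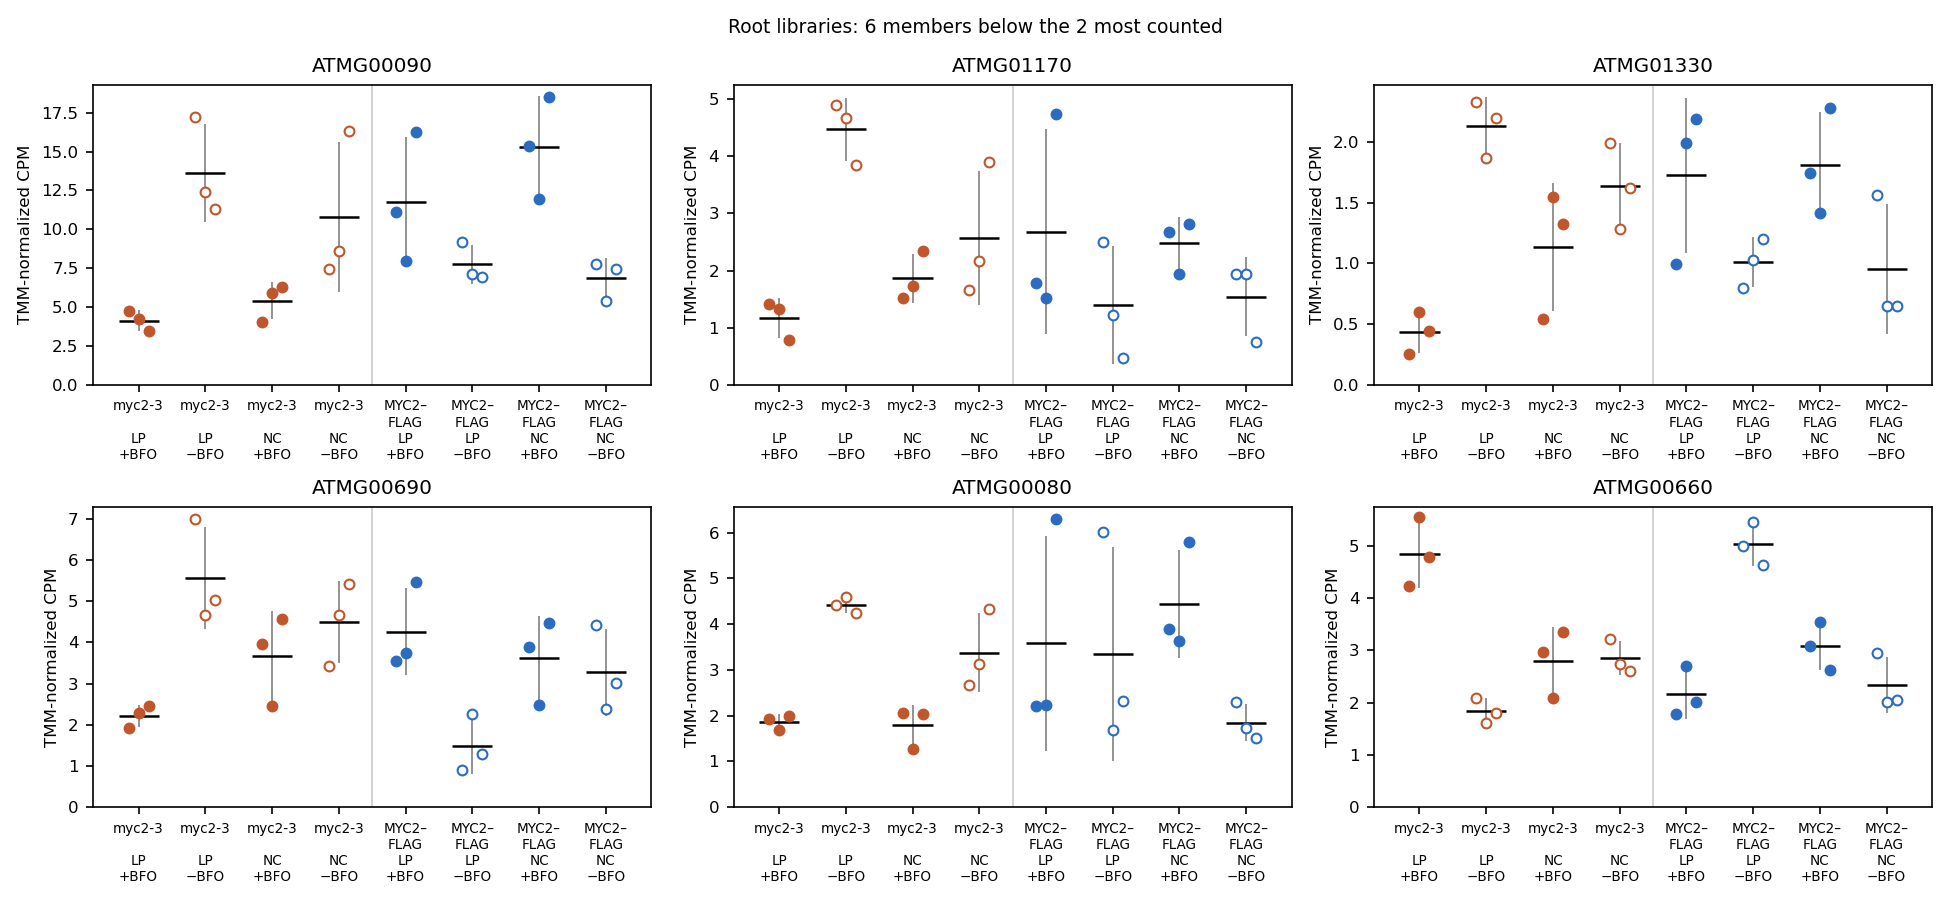
CPM of ATMG00090, ATMG01170, ATMG01330, ATMG00690, ATMG00080 and ATMG00660 in the root libraries, by condition (points are the 3 libraries, filled for +BFO and open for −BFO, with the mean and ± SD). In myc2-3 under LP the first 5 are lower with +BFO, as ATMG00090 with 3.44 to 4.73 CPM against 11.3 to 17.2 CPM with −BFO, and ATMG00660 is higher.

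The members with the fewest counts gave the largest fitted values, and these depend on a few reads. ATMG00130 had no count in the 3 libraries of myc2-3 root LP +BFO, against 29 counts in LP −BFO, so it was at least 7.36-fold lower at a floor of 3 counts over the group. ATMG00140 had 11 counts in the 3 libraries of MYC2–FLAG root LP +BFO and none in LP −BFO, at least 4.10-fold higher at the same floor. Over both lights ATMG00130 was called lower with +BFO in myc2-3 roots and higher in MYC2–FLAG roots, and ATMG00140 likewise. The ATMG00140 call in myc2-3 was lost without any one of 7 libraries. ATMG00630 and ATMG01130 were called higher with +BFO in MYC2–FLAG roots, at 1.1 ± 0.40 and 1.1 ± 0.38, and ATMG00665 lower, at −1.11 ± 0.48 (log2 fold change, SE). ATMG00665 had at most 0.818 CPM in any root library and lost this call in 11 of 19 alternatives.

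ATMG00660, one of the 31, had the order of ATMG00020 under LP. There it had 4.22, 5.55 and 4.78 CPM in myc2-3 roots with +BFO, against 2.1, 1.62 and 1.81 CPM with −BFO. MYC2–FLAG roots had 1.78, 2.70 and 2.01 CPM with +BFO, against 5.0, 5.44 and 4.64 CPM with −BFO. Neither pair overlapped. Over both lights its log2 fold changes were 0.69 ± 0.22 in myc2-3 and −0.41 ± 0.21 in MYC2–FLAG (SE), under the fold limit.

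The test of the difference between genotypes in their BFO effect called 14 of 34 members in roots, against 27.3% of all genes tested, and 4 were higher (13.3% of all genes) and 10 lower (14.0%). The 4 with the more positive effect in myc2-3 were ATMG00020 at 2.5 ± 0.22, ATMG01390 at 1.27 ± 0.16, ATMG00665 at 1.99 ± 0.68 and ATMG00660 at 1.1 ± 0.30 (log2, SE). The 10 lower members were ATMG00090 at −2.25 ± 0.26, ATMG01330 at −2.22 ± 0.39, ATMG01170 at −2.03 ± 0.39, ATMG00080 at −1.80 ± 0.35 and ATMG00690 at −1.63 ± 0.27 (log2, SE), and ATMG00140, ATMG00130, ATMG01130, ATMG00040 and ATMG01370. Apart from ATMG01370, each of the 14 kept its call under all 31 alternatives. The count was 13 to 17 when 1 library was left out. No alternative exchanged BFO labels, on which the size and sign of these differences rest.

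Other values moved with these shares in part. AT3G41768, a ribosomal RNA row of the nuclear genome, had 0.230% to 0.277% of gene counts in MYC2–FLAG root LP −BFO and 0.123% to 0.202% in myc2-3 root LP +BFO, the groups with the highest member share. Counts not uniquely aligned were 5.32% to 5.90% of all counts in the first of these groups and 2.85% to 4.52% in the second. Under NC both ran against the member share. In myc2-3 AT3G41768 had 0.0829% to 0.109% with +BFO, against 0.115% to 0.185% with −BFO. In MYC2–FLAG it had 0.154% to 0.233% with +BFO, against 0.0734% to 0.142% with −BFO. AT2G01020, a second ribosomal RNA row of the nuclear genome, overlapped between labels in MYC2–FLAG roots under LP. It had 13.1, 9.26 and 11.2 CPM there with +BFO, against 14.5, 18.3 and 10.0 CPM with −BFO. In myc2-3 roots under LP it had 22.8, 19.3 and 18.9 CPM with +BFO, against 13.3, 13.4 and 9.35 CPM with −BFO. Under NC this row overlapped between labels in both genotypes. Their part in the result was not tested, and the library preparation is not given in the sources used here.

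**Figure D5:**
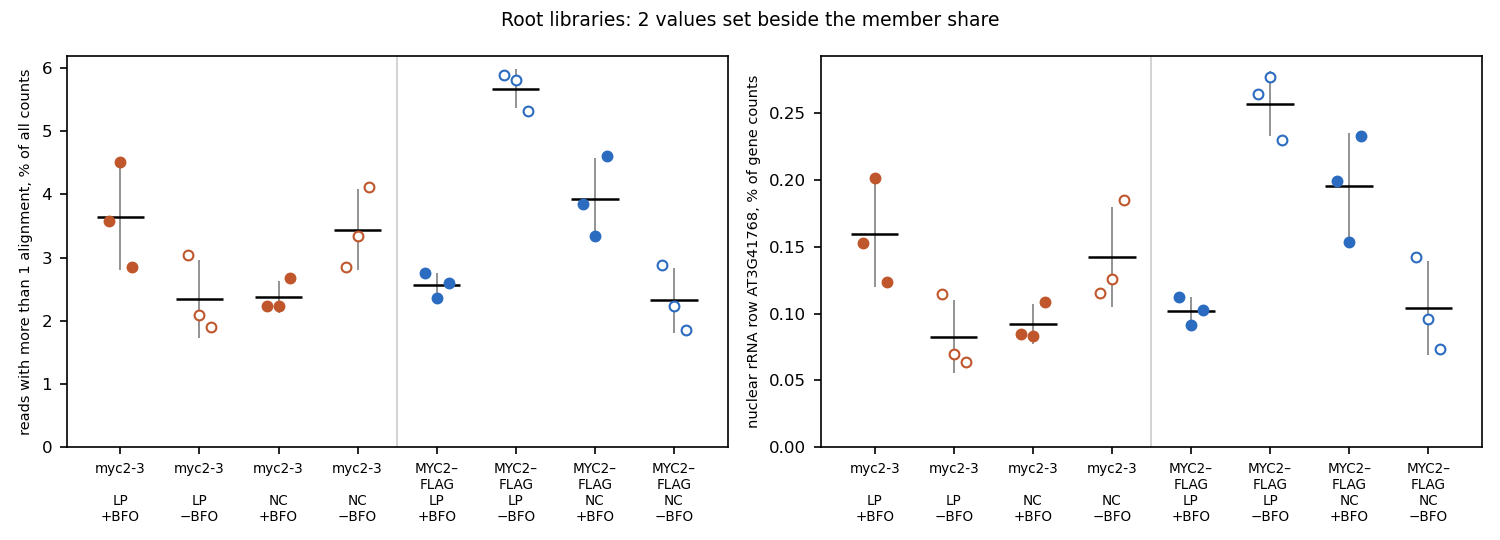
Root libraries by condition, with reads of more than 1 alignment in percent of all counts (left) and the nuclear ribosomal RNA row AT3G41768 in percent of gene counts (right). Points are the 3 libraries, filled for +BFO and open for −BFO, with the mean and ± SD. Both are highest in MYC2–FLAG LP −BFO, at 5.32% to 5.90% and 0.230% to 0.277%.

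In myc2-3 shoots the share was higher with +BFO. Its mean was 0.0416% with +BFO and 0.0260% with −BFO (p = 0.005, the smallest possible, adjusted p = 0.012, exact permutation test), without overlap under either light. Without replicate 2 of LP +BFO the difference of 0.0156 percentage points was 0.0119 and stayed called. Under LP other values moved with the share. AT3G41768 had 0.0672% to 0.125% of gene counts with +BFO, against 0.0264% to 0.0316% with −BFO, and counts not uniquely aligned were 2.67% to 5.23% with +BFO, against 1.71% to 2.1% with −BFO. Under NC both overlapped between the labels. Their part in the result was not tested. ATMG00020 stood at 0.74 ± 0.16 and ATMG01390 at 0.65 ± 0.12 (log2 fold change, SE), under the fold limit. In MYC2–FLAG shoots the mean was 0.0199% with +BFO and 0.0215% with −BFO (adjusted p = 0.584, exact permutation test). No member was called in either line, against 10.2% of all genes in myc2-3 shoots and 1.79% in MYC2–FLAG shoots. At an unadjusted p under 0.05 edgeR gave 5 members in myc2-3 shoots, against 45.3% of all genes, and 4 in MYC2–FLAG shoots, against 28.3%, while limma-voom called 1 in each and DESeq2 none.

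The difference between genotypes in the BFO effect was called for 2 members in shoots, against 9.50% of all genes. ATMG01130 had 2.25 ± 0.68 and ATMG00020 1.04 ± 0.23 (log2, SE). Under LP ATMG01130 had 1.59, 0.460 and 1.95 CPM in myc2-3 shoots with +BFO, against 0.488, 0.716 and 0.365 CPM with −BFO, and 0.389, 0.179 and 0 CPM in MYC2–FLAG shoots with +BFO, against 1.08, 0.733 and 0.529 CPM with −BFO. The ATMG00020 call was lost in 11 of 31 alternatives. Both differences rest on the BFO labels, and in shoots under LP 63.72% of genes called in both genotypes went opposite ways.

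Light alone changed few members. In myc2-3 shoots the mean share was 0.0391% under LP and 0.0285% under NC (adjusted p = 0.02, exact permutation test, n = 6 each), with a difference of 0.0106 percentage points. This call was lost without any one of the 3 libraries of NC +BFO, and without replicate 2 of LP +BFO, which stood apart, the difference was 0.00687. In MYC2–FLAG shoots the mean was 0.0202% under LP and 0.0212% under NC (adjusted p = 0.71, exact permutation test), and without replicate 3 of NC −BFO or replicate 2 of NC +BFO the sign turned. ATMG00070 was the 1 member called in myc2-3 shoots, against 5.77% of all genes. It had 1.91, 3.22 and 2.51 CPM under LP and 1.02, 0.744 and 0.344 CPM under NC with +BFO, and 1.30, 3.01 and 2.01 CPM under LP and 2.22, 1.18 and 0.937 CPM under NC with −BFO. The groups overlapped with −BFO, and the log2 fold change was 1.17 ± 0.38 (SE, edgeR adjusted p = 0.0157), lost without replicate 3 of NC +BFO or replicate 2 of LP −BFO. In MYC2–FLAG shoots no member was called, against 16.3% of all genes. At an unadjusted p under 0.05 edgeR gave 2, against 56.0% of all genes, while limma-voom called 1 and DESeq2 0.

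In roots the light effect on the share turned with the BFO label, so the averages hide it. In myc2-3 the mean was 0.500% under LP and 0.319% under NC with +BFO, but 0.182% under LP and 0.248% under NC with −BFO. In MYC2–FLAG it was 0.162% under LP and 0.251% under NC with +BFO, but 0.795% under LP and 0.324% under NC with −BFO. Averaged over BFO the means were 0.341% under LP and 0.283% under NC in myc2-3 (adjusted p = 0.32, exact permutation test), and 0.479% under LP and 0.287% under NC in MYC2–FLAG (adjusted p = 0.15, exact permutation test). ATMG01080, subunit 9 of ATP synthase, was the 1 member called for light in myc2-3 roots, against 0.796% of all genes. It had 0.512, 0.965 and 0.333 CPM under LP and 1.26, 1.64 and 1.93 CPM under NC with +BFO, and 0.466, 0.595 and 0.785 CPM under LP and 0.997, 0.884 and 1.19 CPM under NC with −BFO. The groups did not overlap with either label, and the log2 fold change was −1.03 ± 0.29 (SE, edgeR adjusted p = 0.0336), lost without any one of 8 libraries. In MYC2–FLAG roots no member was called for light, against 0.583% of all genes. At an unadjusted p under 0.05 edgeR gave 6, or 17.6% of the members against 17.1% of all genes, and limma-voom and DESeq2 called 0 each.

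The test of whether the BFO effect differed between lights called 6 members in myc2-3 roots, against 12.9% of all genes, and 5 in MYC2–FLAG roots, against 6.70%. ATMG00020 was among both, at 1.33 ± 0.31 in myc2-3 roots and −2.12 ± 0.32 in MYC2–FLAG roots, and so was ATMG00660, at 1.43 ± 0.43 in myc2-3 and −1.62 ± 0.42 in MYC2–FLAG (log2, SE). ATMG01390 was called in MYC2–FLAG roots at −1.76 ± 0.23. The myc2-3 count was 3 without replicate 3 of NC +BFO and 10 without replicate 3 of NC −BFO. In shoots 1 member was called in myc2-3, against 6.72% of all genes, and 2 in MYC2–FLAG, against 17.5%. ATMG00160 in myc2-3 shoots had 1.43, 1.84 and 2.37 CPM with +BFO and 0.814, 0.859 and 1.46 CPM with −BFO under LP, but 1.02, 1.24 and 1.72 CPM with +BFO and 2.52, 3.34 and 4.22 CPM with −BFO under NC. Its difference in effect was 2.2 ± 0.57 (log2, SE) and stayed called under all 19 alternatives.

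ATMG00090 and ATMG00080 were the 2 MYC2–FLAG shoot members whose BFO effect differed between lights. ATMG00090 had 3.89, 3.04 and 2.83 CPM with +BFO and 5.05, 4.40 and 5.69 CPM with −BFO under LP, but 5.03, 5.59 and 6.26 CPM with +BFO and 2.28, 2.25 and 3.70 CPM with −BFO under NC. Neither light had overlapping groups, and the turn in sign between lights rests on the BFO labels. ATMG00090 kept its call under all 19 alternatives, whereas ATMG00080 lost it in 10 of 19, of which 8 were left-out libraries. The difference between genotypes in the light effect was called for 1 member in shoots (ATMG00070, 1.38 ± 0.55, log2 and SE, lost in 15 of 31 alternatives), against 18.2% of all genes. In roots it was called for none, against 0.318%, with 0 members at an unadjusted p under 0.05 in edgeR, against 9.93% of all genes, and 0 calls by limma-voom and DESeq2.

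Nuclear genes that serve the mitochondrion were read from lists chosen with earlier results known. The list of alternative respiration and mitochondrial stress holds the alternative oxidases, which pass electrons to oxygen without pumping protons, the type II NAD(P)H dehydrogenases, which feed electrons in without complex I, and genes known to rise when the respiratory chain is impaired. Of its 18 genes 14 could be tested. In myc2-3 roots 2 were called higher and 1 lower with +BFO, against 4.89% and 5.42% of all genes, and the median log2 fold change was 0.58, against −0.03 over all genes. Among MYC2–FLAG roots 0 were higher and 5 lower, against 6.06% and 6.80% of all genes, with a median of −0.69 against 0.00. The difference between genotypes was called for 9, against 27.3% of all genes. Of these 8 were higher (13.3% of all genes), and the list's median was 1.37 against −0.03 over all genes. These directions rest on the BFO labels of the root libraries, where nearly all genes called in both genotypes went opposite ways.

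AOX1D, an alternative oxidase gene, had 3.97, 3.74 and 4.44 CPM in myc2-3 roots under LP with +BFO, against 2.56, 2.47 and 1.41 CPM with −BFO. Its values in MYC2–FLAG roots under LP were 2.22, 2.11 and 2.37 CPM with +BFO, against 11.5, 6.95 and 8.53 CPM with −BFO. Neither pair overlapped, and the log2 fold changes over both lights were 1.82 ± 0.40 in myc2-3 and −3.64 ± 0.40 in MYC2–FLAG (SE). NDB2, an external NAD(P)H dehydrogenase gene, had 97.4, 94.8 and 86.6 CPM in myc2-3 roots under LP with +BFO, against 53.2, 42.5 and 36.1 CPM with −BFO. Its values in MYC2–FLAG roots under LP were 32.2, 36.2 and 24.7 CPM with +BFO, against 113, 108 and 102 CPM with −BFO. It had the same order under NC, where the member share of MYC2–FLAG roots overlapped between labels, with 21.6, 25.5 and 24.6 CPM with +BFO, against 91.6, 87.1 and 95.9 CPM with −BFO. AOX1A, the main stress-induced oxidase gene, was called lower with +BFO in MYC2–FLAG roots at −1.13 ± 0.17 (log2 fold change, SE). AOX1C, another alternative oxidase gene, went the other way. It was called lower with +BFO in myc2-3 roots at −1.97 ± 0.52 (log2 fold change, SE). Its difference between genotypes was −3.96 ± 1.07 (log2, SE).

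The last lists hold genes of mitochondrial transcription, RNA processing and DNA maintenance. Of 12 genes of transcription and RNA processing, all tested, 0 were called for BFO in myc2-3 roots (10.3% of all genes), in MYC2–FLAG roots (12.9%) or in the difference between genotypes (27.3%). Their medians were −0.24 in myc2-3, against −0.03 over all genes, and 0.05 in MYC2–FLAG, against 0.00. At the tissue level, AT5G14580, a polynucleotide phosphorylase gene, was lower in shoots at −2.65 ± 0.12 in myc2-3 and −1.73 ± 0.12 in MYC2–FLAG, and RNR1 was higher, at 1.13 ± 0.05 in myc2-3 and 1.34 ± 0.05 in MYC2–FLAG (log2 fold change, SE). Of 7 genes of mitochondrial DNA maintenance, 0 were called for BFO in the roots of either genotype. Their difference between genotypes was called for 2, both lower, a share close to the 27.3% of all genes (14.0% lower). These were the organellar DNA polymerase genes, POLIA at −1.15 ± 0.13 and POLIB at −1.18 ± 0.11 (log2, SE).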

How the data were processed

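RNA from shoots and roots was sequenced in 48 libraries (3 for each of 16 conditions). The authors checked reads with FastQC, aligned them to TAIR10 with TopHat2 and counted reads over exons by strand with HTSeq. The values deposited are raw counts per gene in 1 table for each genotype, with no normalization and no columns of comparisons. The 5 summary lines at the end of each table (not uniquely aligned reads 1.46% to 5.90%, reads outside genes 1.23% to 4.08% of all counts) were left out of library sizes and tests.

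Shares are percentages of gene counts, compared by two-sided exact permutation tests within conditions, adjusted by Benjamini-Hochberg over 12 comparisons. Genes with more than 100 counts (21098) were tested with edgeR 4.0.16 (R 4.3.3) by the quasi-likelihood test after TMM normalization, with 16 condition means over all 48 libraries and Benjamini-Hochberg adjustment over all genes, in 20 contrasts. A call needed an adjusted p under 0.05 and a log2 fold change of at least 1 in size. CPM are counts per 1000000 of TMM-normalized library size, not divided by gene length, and have no interval of their own beside the spread over 3 libraries. Python 3.11.15, pandas 2.3.3 and numpy 2.4.6 were used for shares. The steps were tested on simulated data for BFO in myc2-3 roots over 21098 genes. There 95 of 100 genes at a log2 change of 1.5 and 98 of 100 at 2.5 were recovered, with 2 unchanged genes called. Changed genes were drawn from all genes tested, at 1 dispersion of 0.05 for every gene. The recovery need not hold for members with few counts.

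Alternatives were limma-voom (limma 3.58.1, the method the study states), DESeq2 1.42.0, DESeq2 size factors, nuclear genes as scale, no filter, no fold limit, a replicate block, other denominators and member sums, a log2 scale and leaving out each library. A fit with legacy dispersions was added after seeing the data. Members named in full were the 8 with the highest mean CPM, the highest of each functional class of a fixed list, and for each contrast the 2 called members with the largest log2 fold change whose groups did not overlap (no such limit for differences of effects). ATMG01090, ATMG01330, ATMG01380, ATMG00630 and ATMG00665 were named after their values were seen. Members and lists were chosen with earlier results of these data known. The 2 libraries of most similar counts differed by a chi-square of 2.73 per degree of freedom, so all 48 were kept as separate. Sequences and coordinates of members are not analysed here, since the mitochondrial reference at hand is not the build of the files.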

Additional observations from a re-analysis of the deposited data

Results flagged for a closer look

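A test of a difference between effects picked out the following values, which are given without an explanation. The BFO effect differed between lights in myc2-3 shoots for 1 of 34 members, ATMG00160 (log2 difference 2.2), against 6.72% of all genes tested. In myc2-3 roots it differed for 6, against 12.9%, among them ATMG00130 (−5.60, with no count in 3 of the libraries) and ATMG00040 (−2.09). In MYC2–FLAG shoots it differed for 2 members, against 17.5% of all genes. These were ATMG00080 (−1.92, lost in 10 of 19 alternatives) and ATMG00090 (−1.67). In MYC2–FLAG roots it differed for 5, against 6.70%, led by ATMG00020 (−2.12) and ATMG01390 (−1.76). ATMG00040 had 0.640, 0.482 and 0.333 CPM in myc2-3 root LP +BFO, against 1.86, 2.13 and 1.02 CPM in LP −BFO, and lost its call without replicate 3 of NC +BFO.

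The light effect differed between genotypes in shoots for 1 member, ATMG00070 (log2 difference 1.38), against 18.2% of all genes tested. The BFO effect differed between genotypes in shoots for 2 members, ATMG01130 (2.25) and ATMG00020 (1.04), against 9.50% of all genes. In roots it differed for 14, against 27.3%, with ATMG00140 (−5.04) and ATMG00130 (−4.97) at the largest fitted values. Both of these rest on few counts. The size and sign of their root differences rest on the BFO labels, which no alternative exchanged.

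Outside the members, 1539 counts lay on the 112 ATMG rows that did not pass 100 counts. They were part of the gene counts by which shares were divided, but of no member share, and were tested only in the alternative without a filter.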

How the results depend on the processing

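Of 160 counts of called members under other alternatives, 136 stayed within 1.5 times the reported count, as did 287 of 336 counts with 1 library left out, and no single member called changed sign (42 of 455 alternatives and 135 of 1212 left-out libraries lost the call). Without a fold limit, counts out of 34 members are given against counts out of the 21098 genes tested. They were 13 against 6181 for genotype in shoots and 1 against 4203 in roots. For tissue they were 13 against 18180 in myc2-3 and 14 against 17913 in MYC2–FLAG. Light in myc2-3 shoots gave 6 against 7343, and BFO in myc2-3 shoots gave 2 against 8053. BFO in roots gave 11 against 9447 in myc2-3 and 15 against 10747 in MYC2–FLAG. Limma-voom gave 5 for tissue in MYC2–FLAG, 1 each for light in MYC2–FLAG shoots, BFO in the shoots of either line, light by BFO in MYC2–FLAG shoots and genotype by BFO in shoots, and 0 for genotype by light in shoots. DESeq2 gave 0 for light in myc2-3 roots and 1 for genotype by BFO in shoots. DESeq2 size factors and no filter each gave 0 for genotype by light and 1 for genotype by BFO in shoots, and no filter gave 1 for light by BFO in MYC2–FLAG shoots. The cause was not tested. With 1 library left out the counts were 0 to 2 for light in myc2-3 shoots, 0 to 1 in myc2-3 roots and 0 to 2 in MYC2–FLAG shoots, 0 to 1 for BFO in the shoots of either line and 4 to 8 in myc2-3 roots. They were 3 to 10 for light by BFO in myc2-3 roots, 1 to 3 in MYC2–FLAG shoots and 3 to 5 in MYC2–FLAG roots, 0 to 2 for genotype by light and 1 to 3 for genotype by BFO in shoots. Without ATMG00020, ATMG01390 and ATMG01380 the difference in share, in percentage points, turned to −0.000619 for light in MYC2–FLAG roots, −0.00233 for BFO in myc2-3 roots, 0.000556 for BFO in MYC2–FLAG shoots and 0.00176 for BFO in MYC2–FLAG roots, and lost its call for tissue in myc2-3 (−0.00135), light in myc2-3 shoots (0.00141) and BFO in myc2-3 shoots (0.000663). Without ATMG00020 alone it was 0.0117 for BFO in myc2-3 roots and −0.0274 in MYC2–FLAG roots, both no longer called, and turned to 0.00111 in MYC2–FLAG shoots. With 1 library left out it was −0.00227 to 0.000578 for light in MYC2–FLAG shoots, where it reversed without replicate 3 of NC −BFO (0.000578) and replicate 2 of NC +BFO (0.000460), 0.00687 to 0.0131 in myc2-3 shoots and −0.369 to −0.326 for BFO in MYC2–FLAG roots. The 115 counts of ATMG00140 came to under 3 per library on average, and such depth limits what can be called.

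Within a genotype and tissue the replicate numbers did not pair the samples. Pairing of shoots with roots was not examined. Deviations of same-numbered libraries had mean correlations of −0.032 to 0.0087 over 18 pairs in each genotype and tissue, and 2 of 18 pairs exceeded 0.1 in each. Between 1 and 4 of 12 libraries correlated best with their own number. With the replicate block, the count of called members was 1 for genotype in shoots, none of the 3 members reported there, and 0 for light in myc2-3 roots. The share differences of light in myc2-3 shoots (0.0106), BFO in myc2-3 shoots (0.0156), BFO in myc2-3 roots (0.194) and BFO in MYC2–FLAG roots (−0.354) were no longer called. Each had an adjusted p of 0.05357 in the exact permutation test with 64 exchanges.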

Other observations

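The make-up of the 31 less counted members differed between tissues beside their sum. ATMG00090 held 11.2% of their counts in shoots and 20.1% in roots, whereas ATMG00660 held 10.9% in shoots and 6.46% in roots. ATMG01080, subunit 9 of ATP synthase, held 4.81% in shoots and 1.96% in roots, and ATMG01090 4.06% in shoots and 1.46% in roots. These are pooled shares over 24 libraries of a tissue with no test.

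Among nuclear genes of mitochondrial respiration, NDA1, an internal NAD(P)H dehydrogenase gene regulated by light, was far higher in shoots. It had 38.0 to 174 CPM over shoot libraries and 0 to 0.555 CPM over root libraries. In MYC2–FLAG shoots its BFO effect differed between lights by 2.13 ± 0.22 (log2, SE, edgeR adjusted p = 3.676e-11), with 170, 160 and 171 CPM with +BFO, against 65.1, 66.8 and 89.1 CPM with −BFO under LP. Under NC it had 53.3, 43.9 and 38.0 CPM with +BFO, against 85.9, 93.3 and 83.9 CPM with −BFO. AOX1A had the same pattern there, at 3.44 ± 0.35 (log2, SE), with 182, 121 and 274 CPM with +BFO, against 48.5, 47.9 and 63.9 CPM with −BFO under LP. In these shoots 6 of the 14 tested genes of alternative respiration and mitochondrial stress were higher and 1 lower in that test. Of all genes 17.5% were called, and the list's median was 1.90 against 0.00 over all genes. The direction of these differences rests on the BFO labels.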
